A study of Mus musculus with 18 samples.

Results

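The 44 genes described here carry out DNA replication and S phase in mouse cells. They were chosen by their function, with earlier results of these data known. By Entrez Gene ID they were found among the 27179 genes of the count tables. All 44 reached 0.5 CPM (the count of a gene scaled to a common library size) in at least 3 samples, and they stood among 12797 genes that were tested. By role, 9 of them license replication origins, 4 activate the replicative helicase, 6 are DNA polymerase or primase subunits, 5 make the sliding clamp and its loader, 5 serve the lagging strand, the fork or single-stranded DNA, 5 supply nucleotides, 4 supply histones or assemble chromatin, 3 maintain DNA methylation and 3 control the step from G1 to S phase.

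Transcripts were measured by RNA sequencing in thymocytes of 9 mice, 3 each of WT, HoilΔCd4 and Sharpin-cpdm. From every animal CD69+ cells were sorted by their surface MHC I into a low and a high fraction (MHC I low and MHC I high), which gave 18 libraries in 6 groups of 3. CD69 appears on thymocytes once their antigen receptor has signalled, and MHC I increases as positively selected cells mature, so the comparison of the fractions follows a step of maturation and the comparison of genotypes asks how this step runs when LUBAC, the enzyme complex that assembles linear ubiquitin chains, is impaired. In HoilΔCd4 mice a Cd4Cre transgene deleted a floxed stretch with the promoter and first exons of Rbck1, the gene for the LUBAC subunit HOIL-1, so the deletion was limited to cells that have expressed Cd4. Sharpin-cpdm mice carried the spontaneous cpdm allele of Sharpin, a second LUBAC subunit, in all cells of the body, and came from a C57BL/Ka strain that was crossed only briefly to C57BL/6, the background of the other animals. Mice of both sexes were used, and the age of the sequenced animals is not given in the sources used here. The sort removed dead cells and cells that carried CD25 or CD44, markers of B, NK and myeloid cells (B220, NK1.1, Gr1 and Mac-1), MHC II or the gamma-delta T-cell receptor.

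As background, a replication origin is licensed in G1 when ORC, CDC6 and CDT1 load the ring of MCM2 to MCM7, and it fires in S phase when CDC45 and GINS join that ring to form the active helicase. Polymerases then copy both strands behind the clamp PCNA, while ribonucleotide reductase keeps up the supply of nucleotides and new histones and methyl groups are placed on the daughter strands. Many of these genes are transcribed together under E2F factors at the end of G1, and in the thymus proliferation is known to be brisk before positive selection and to stop in the small double-positive (DP) cells that await selection, with some division resuming late in maturation.

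Promoter windows are shown because all of these genes rose between the fractions, as described further on. A window held 300 bases, 250 before and 50 from the annotated start, and came from RefSeq on build GRCm38.p6. It was found for 36 of the 44 genes, which had 43 windows, and not for Mcm4, Gins1, Gins2, Pole, Rfc2, Exo1, Tipin and Ccne2. Both strands were searched for an E2F motif, spelled TTTCCCGC, TTTCGCGC, TTTGCCGC or TTTGGCGC, and matches were allowed to overlap. A match was present for 15 of the 36 genes, that is 41.7%, against 4.83% of the 9984 tested genes that had a window. The letters CCAAT, on either strand, stood in 53.5% of the 43 windows and in 37.9% of the windows of all tested genes. Shown here are 4 windows of genes on which the comparisons between genotypes turn, 3 of them with a match and that of Rrm1 without. Capitals mark the E2F matches, and each window is written 5′ to 3′ on the strand of its gene, with Mcm3 at chr1:20820263-20820562 (minus strand), Mcm6 at chr1:128359656-128359955 (minus), Pola1 at chrX:93632106-93632405 (minus) and Rrm1 at chr7:102441445-102441744 (plus).
Mcm3: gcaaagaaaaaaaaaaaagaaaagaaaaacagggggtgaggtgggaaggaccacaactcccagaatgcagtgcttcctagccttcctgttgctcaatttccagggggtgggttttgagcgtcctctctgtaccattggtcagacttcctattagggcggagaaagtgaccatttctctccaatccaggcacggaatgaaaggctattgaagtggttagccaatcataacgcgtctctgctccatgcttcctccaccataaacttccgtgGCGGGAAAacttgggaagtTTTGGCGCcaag
Mcm6: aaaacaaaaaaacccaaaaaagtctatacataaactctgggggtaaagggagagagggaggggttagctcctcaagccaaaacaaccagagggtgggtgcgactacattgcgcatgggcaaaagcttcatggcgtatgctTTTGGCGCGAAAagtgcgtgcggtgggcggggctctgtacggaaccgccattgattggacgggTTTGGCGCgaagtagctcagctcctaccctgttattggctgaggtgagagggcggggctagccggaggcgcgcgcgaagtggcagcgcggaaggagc
Pola1: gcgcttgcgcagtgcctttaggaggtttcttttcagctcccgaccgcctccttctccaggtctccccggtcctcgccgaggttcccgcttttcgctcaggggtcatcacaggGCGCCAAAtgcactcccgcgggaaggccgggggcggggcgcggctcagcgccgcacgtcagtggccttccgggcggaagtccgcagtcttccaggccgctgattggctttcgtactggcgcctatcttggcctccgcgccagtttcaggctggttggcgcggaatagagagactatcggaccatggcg
Rrm1: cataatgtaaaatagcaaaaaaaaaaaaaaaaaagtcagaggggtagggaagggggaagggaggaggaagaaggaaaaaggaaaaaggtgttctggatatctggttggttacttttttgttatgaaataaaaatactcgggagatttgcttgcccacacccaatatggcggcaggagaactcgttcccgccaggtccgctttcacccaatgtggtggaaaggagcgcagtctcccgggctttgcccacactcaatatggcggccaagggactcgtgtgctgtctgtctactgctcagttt
In Mcm3 the matches began at bases 20 and 39 after the start, and in Pola1 at base -138. Mcm6 had 3 matches, beginning at -110, -106 and -47, of which the first 2 overlap on opposite strands. A match describes these letters only, and the absence of one in Rrm1 says no more than that the letters are not in this window.

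Total counts lay between 10577966 and 16266128 per library, with a median of 13979793. Rbck1 stood between 217 and 268 CPM in the WT and Sharpin-cpdm libraries, at 0.271 to 0.779 CPM in the HoilΔCd4 MHC I low libraries and at 3.72, 8.94 and 4.51 CPM in the HoilΔCd4 MHC I high libraries of mice 1, 2 and 3. Sharpin transcripts remained in Sharpin-cpdm mice (66.4 to 77.9 CPM against 85.9 to 97.4 CPM in WT), so the count of this gene is a weak check of that label. By Xist and Ddx3y all 3 WT mice, HoilΔCd4 mouse 3 and Sharpin-cpdm mouse 2 had the pattern of females and the other 4 that of males, so sex was not balanced between genotypes. The MHC I high library of HoilΔCd4 mouse 2, with the male pattern, also held 64.6 CPM of Xist and the highest Rbck1 of its group, and the counts of genes called over WT in this fraction are given with and without that mouse. H2-K1, which encodes the MHC I protein of the sort, was at 157 to 232 CPM in the MHC I low libraries and at 1725 to 2119 CPM in the MHC I high libraries, and the T-cell genes Cd3e, Cd3d, Cd3g, Lck, Thy1, Cd4, Cd8a and Cd8b1 were all expressed.

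The summed level of the 44 genes differed most between the fractions (the plot of summed level per library). Among the MHC I low libraries it was 1513, 1553 and 1557 CPM in the 3 WT libraries, 1583, 1592 and 1548 CPM in HoilΔCd4 and 1558, 1644 and 1790 CPM in Sharpin-cpdm. Among the MHC I high libraries it was 2745, 2777 and 2648 CPM in WT, 3322, 3775 and 3543 CPM in HoilΔCd4 and 2978, 3348 and 3720 CPM in Sharpin-cpdm. All 9 MHC I high libraries thus lay above all 9 MHC I low libraries, and within the MHC I high fraction all 6 mutant libraries lay above the 3 of WT. In the MHC I low fraction the 3 Sharpin-cpdm libraries also lay above those of WT, the lowest of them by little, while HoilΔCd4 and WT overlapped. Dnmt1, which encodes the maintenance DNA methyltransferase, took the largest part of the sum. Without it the sums still ran from 2318 to 2433 CPM in WT, from 2909 to 3342 CPM in HoilΔCd4 and from 2587 to 3276 CPM in Sharpin-cpdm MHC I high cells.

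**Figure D1:**
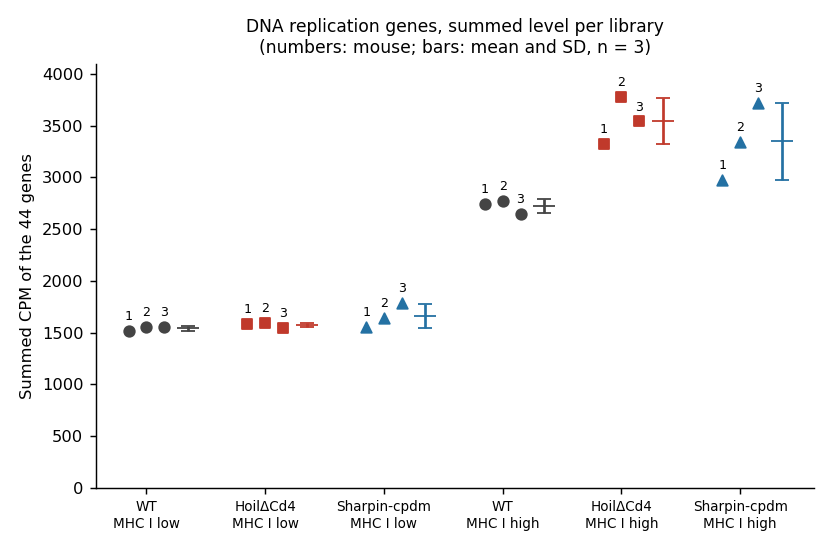
Each point is the summed CPM of the 44 replication genes in 1 library, labelled with its mouse number, and each bar gives the group's mean and SD (n = 3). In the MHC I low fraction HoilΔCd4 overlaps WT (1513 to 1557 CPM). Sharpin-cpdm (1558 to 1790 CPM) lies above WT there, in mouse 1 by little, and overlaps it when Dnmt1 is left out. The 6 mutant MHC I high libraries (2978 to 3775 CPM) lie above the 3 WT libraries (2648 to 2777 CPM).

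Per kilobase of counted transcript, Pcna was the most abundant of the 44 in WT, with a mean level of 68.6 CPM per kb in MHC I low and 93.6 CPM per kb in MHC I high cells. In WT MHC I high cells Mcm6 followed at 64.3, Dnmt1 at 54.3 and Rfc2, a subunit of the clamp loader, at 48.8 CPM per kb. At the other end were the cyclin gene Ccne2 at 1.70, the 5′ exonuclease gene Exo1 at 1.86 and the origin-binding gene Orc1 at 2.43 CPM per kb. In WT MHC I low cells Cdc6, Exo1, Mcm10, Ccne2 and Orc1 stood at 2.33 CPM or less on average, or 23 to 38 counts in a library. For 11 of the 44 genes the span overlaps another counted gene (among them Mcm7, Fen1, Lig1, Chaf1a and E2f1), and Pcna, Tyms and Nasp have named pseudogenes. The setting for strand is not given in the sources used here, so reads shared at such places cannot be assigned with certainty.

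In WT mice all 44 genes rose with maturation from low to high surface MHC I (adjusted p under 0.05, limma with Benjamini-Hochberg adjustment over all tested genes), while 27.5% of all tested genes were called higher. The median log2 fold change of the 44 was 0.98, a 1.97-fold difference, against a median of 0.00 for all tested genes. The values ranged from 0.19 for Nasp, a histone chaperone, to 2.99 for Mcm10, which helps to start the helicase. In bulk samples such as these, more cells in cycle and more RNA of these genes per cell cannot be told apart. The result held in each animal: all 44 genes were higher in the MHC I high library of every mouse, with a median fold of 2.05, 2.04 and 1.86 in WT mice 1, 2 and 3.

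By role the rise in WT was steepest in the genes of G1/S control, with a median log2 fold change of 2.21 over 3 genes, and in helicase activation with 1.96 over 4 genes. Ccne1, the cyclin that drives entry into S phase, was at 4.87, 2.75 and 3.83 CPM in the WT MHC I low libraries and at 27.2, 20.7 and 25.4 CPM in the MHC I high libraries. The groups lay far apart, and the log2 fold change was 2.68 (SE 0.128, adjusted p 1.60e-17). E2f1, which encodes the activating E2F1 factor, went from 5.19, 6.2 and 4.69 CPM to 27.1, 23.1 and 23.9 CPM. Its log2 fold change was 2.21 (SE 0.101, adjusted p 5.60e-18). Cdc6, the licensing factor that loads the MCM ring, stood at 2.37, 2.43 and 2.19 CPM in MHC I low and at 18.4, 16.4 and 15.7 CPM in MHC I high cells, a 6.90-fold difference. The nick-sealing ligase gene Lig1 had the smallest p of all 44, with 18.6, 20.2 and 18.6 CPM against 60.7, 61.4 and 65.7 CPM (log2 fold change 1.74, SE 0.0767, adjusted p 3.33e-18).

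Changes in WT were small in the clamp and its loader. Their 5 genes had a median log2 fold change of 0.45 and a range of 0.42 to 1.11. Pcna itself was at 79.4, 90.8 and 89.1 CPM in MHC I low and at 120, 119 and 115 CPM in MHC I high cells, so its groups were apart by a log2 fold change of 0.44 (SE 0.0625). The ring genes Mcm2 and Mcm7 rose by 0.53 and Mcm3 by 1.22 on the log2 scale, so the transcripts of the 6 ring subunits did not rise by equal amounts. Nucleotide supply was likewise uneven. Rrm2, the subunit of ribonucleotide reductase that is made in S phase, went from 8.45, 8.64 and 11.1 CPM to 49.6, 49.6 and 45.8 CPM, a log2 fold change of 2.33 (SE 0.119). Its partner Rrm1, which is more stable through the cycle, went from 53.1, 55.5 and 57.7 CPM to 94.5, 106 and 98.3 CPM, a log2 fold change of 0.83 (SE 0.0553). Of the 44 calls in WT, 42 held under all 20 other ways of processing. The exceptions were Gins1, a GINS subunit, without WT mouse 3 (adjusted p 0.134) and Nasp without WT mouse 2 (adjusted p 0.0533).

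**Figure D2:**
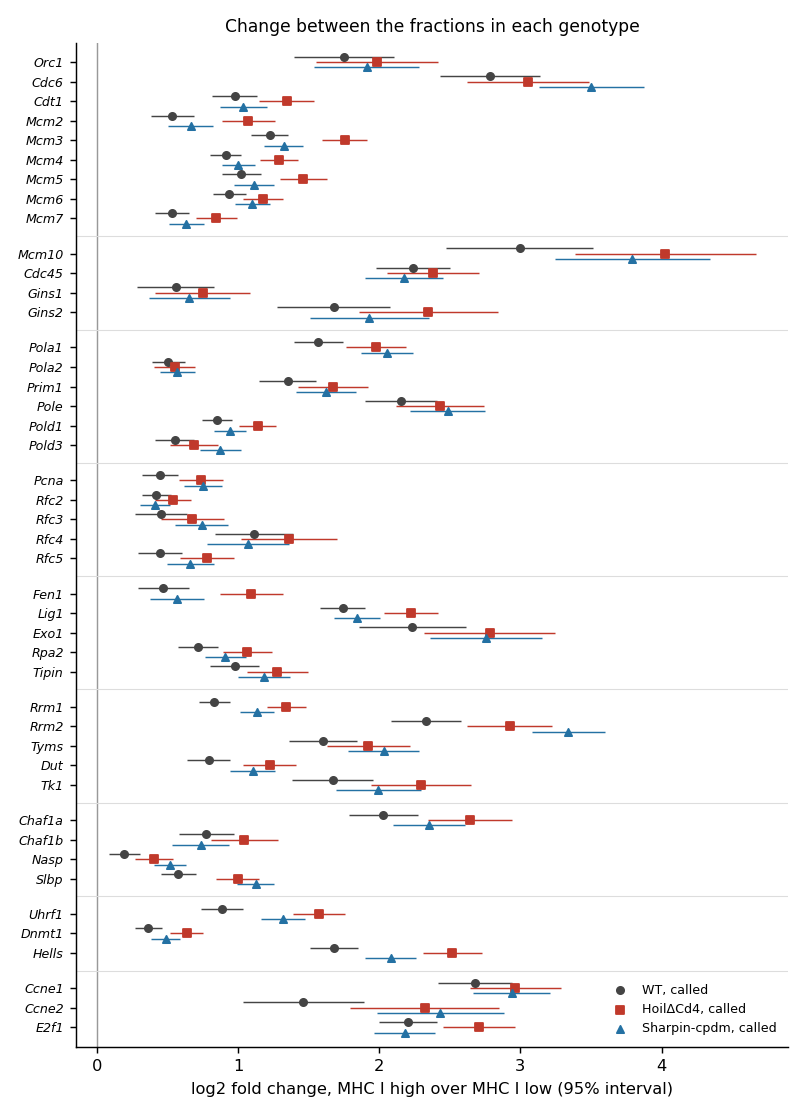
Points give the log2 fold change of each gene in MHC I high over MHC I low cells with its 95% interval in WT, HoilΔCd4 and Sharpin-cpdm mice, ordered by role. All lie above 0, from 0.19 (Nasp, WT) to 4.03 (Mcm10, HoilΔCd4).

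The same step was seen in both mutants. All 44 genes rose in HoilΔCd4 (median log2 fold change 1.35, range 0.41 to 4.03), where 23.5% of all tested genes were called higher, and all 44 rose in Sharpin-cpdm (median 1.13, range 0.41 to 3.79), where 27.2% were. Every one of these calls held under the 20 alternatives. The median fold in single mice was 2.42, 2.73 and 2.57 in HoilΔCd4 mice 1, 2 and 3 and 2.17, 2.21 and 2.30 in Sharpin-cpdm mice 1, 2 and 3, each above the 3 WT mice.

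Before that step, in MHC I low cells, HoilΔCd4 mice could not be distinguished from WT in these genes. None of the 44 was called by limma, edgeR or DESeq2, 2 had an unadjusted p under 0.05 in each of the 3 tools, and 0.985% of all tested genes were called by limma. The median log2 fold change was 0.01, with 22 genes positive, and the range was -0.36 to 0.40. Mcm6, one of the helicase ring genes, had a log2 fold change of 0.25 (95% interval 0.09 to 0.40, adjusted p 0.122) and Tyms, the thymidylate synthase gene, one of 0.40 (interval 0.08 to 0.72, adjusted p 0.304). Without HoilΔCd4 mouse 1 a single gene was called lower.

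After the step, in MHC I high cells, the 44 genes stood higher in HoilΔCd4 than in WT, with a median log2 fold change of 0.44, a 1.35-fold difference, against 0.00 for all tested genes. All 44 values were positive, 25 genes rose by the test and none fell, while 3.84% of all tested genes were called higher. For 36 of the 44, every HoilΔCd4 library lay above every WT library, which was so for 10.1% of all tested genes. The 3 maintenance methylation genes, 7 of the 9 licensing genes, 4 of the 5 nucleotide genes, 4 of the 6 polymerase genes and 3 of the 4 histone genes were among those called. Only 1 of the 5 clamp and loader genes and none of the 4 helicase activation genes were.

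Rrm1 had the smallest p of the 44. It was at 94.5, 106 and 98.3 CPM in WT and at 132, 160 and 148 CPM in HoilΔCd4 MHC I high cells, with no overlap. The log2 fold change was 0.59 (SE 0.0662, adjusted p 1.22e-06). Uhrf1, which brings DNMT1 to newly copied DNA, was at 77.8, 75.2 and 74.6 CPM in WT and at 109, 133 and 114 CPM in HoilΔCd4 (log2 fold change 0.67, SE 0.0863, adjusted p 1.58e-05). Here the lowest mutant library stood well above the highest of WT. Mcm3 was at 115, 131 and 113 CPM in WT and at 156, 184 and 172 CPM in HoilΔCd4 (log2 fold change 0.57, SE 0.0761, adjusted p 2.11e-05). Its neighbour in the ring, Mcm5, went from 132, 147 and 131 CPM to 165, 200 and 184 CPM, a log2 fold change of 0.47 (SE 0.0790, adjusted p 0.000464). Mcm5 did not pass when WT mouse 3 was left out (adjusted p 0.0732).

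Among the other genes shown by sample, the ligase gene Lig1 was at 83.4, 92.9 and 88.7 CPM in HoilΔCd4 MHC I high cells against 60.7, 61.4 and 65.7 CPM in WT, with no overlap (log2 fold change 0.48, adjusted p 0.00146, and 0.0518 without HoilΔCd4 mouse 2). Rrm2 was at 49.6, 49.6 and 45.8 CPM in WT and at 65.4, 90.1 and 80.1 CPM in HoilΔCd4 MHC I high cells (log2 fold change 0.76, SE 0.142, adjusted p 0.00217). The mutant libraries were spread more widely than those of WT, and the call was lost without HoilΔCd4 mouse 2 (adjusted p 0.0763). Slbp, which binds the stem-loop of replication-dependent histone transcripts, was at 62.6, 64.0 and 60.3 CPM in WT and at 73.2, 88.1 and 81.2 CPM in HoilΔCd4 (log2 fold change 0.41, SE 0.0728, adjusted p 0.000575). Its call was lost without HoilΔCd4 mouse 2 or WT mouse 3 (adjusted p up to 0.0633). Pcna was at 120, 119 and 115 CPM against 135, 150 and 153 CPM (log2 fold change 0.34, SE 0.0748, adjusted p 0.00599), and lost its call without HoilΔCd4 mouse 2 or 3 or WT mouse 3 (adjusted p up to 0.196).

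The polymerase genes differed among themselves. Pola1, the catalytic subunit of the polymerase that starts each strand, was at 32.7, 35.6 and 32.8 CPM in WT and at 46.4, 56.6 and 47.6 CPM in HoilΔCd4 (log2 fold change 0.61, SE 0.103, adjusted p 0.000307). Its accessory subunit Pola2 had a log2 fold change of 0.13 (interval -0.01 to 0.27, adjusted p 0.265). Pold1, the catalytic subunit of the lagging-strand polymerase, had 104, 102 and 98.6 CPM in WT and 116, 121 and 128 CPM in HoilΔCd4 (log2 fold change 0.28, adjusted p 0.00619, and up to 0.216 without HoilΔCd4 mouse 2 or 3 or WT mouse 1 or 3).

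In G1/S control the values were mixed. E2f1 was at 27.1, 23.1 and 23.9 CPM in WT and at 33.7, 32.7 and 32.8 CPM in HoilΔCd4 (log2 fold change 0.42, SE 0.121, adjusted p 0.0305). Its groups were apart, but the call was lost without any 1 of the 3 HoilΔCd4 or the 3 WT mice (adjusted p up to 0.285). Ccne1 was at 27.2, 20.7 and 25.4 CPM in WT and at 27.1, 26.5 and 24.1 CPM in HoilΔCd4, so the groups overlapped (log2 fold change 0.04, interval -0.27 to 0.36, adjusted p 0.909). The licensing factor Cdc6 was at 18.4, 16.4 and 15.7 CPM against 19.7, 26.1 and 24.3 CPM, without overlap, yet did not pass (log2 fold change 0.52, interval 0.10 to 0.95, adjusted p 0.127). Cdt1, which works beside CDC6, was at 53.0, 51.5 and 44 CPM in WT and at 58.5, 63.5 and 57.6 CPM in HoilΔCd4 (log2 fold change 0.35, adjusted p 0.0192). It did not pass under 8 of the 20 alternatives, edgeR and DESeq2 among them (adjusted p up to 0.530).

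The 19 genes that were not called included some of the largest values. Ccne2 had a log2 fold change of 0.79 (SE 0.250, adjusted p 0.0535), Mcm10 one of 0.71 (SE 0.297, adjusted p 0.173) and Exo1 one of 0.67 (SE 0.222, adjusted p 0.0663). These genes were scarce, with 74 to 81 counts of Ccne2 in a WT MHC I high library, and their standard errors were wide. Chaf1b, a subunit of the histone chaperone CAF-1, had the smallest value of the 44, 0.02 (interval -0.21 to 0.25), close to that of Ccne1. The large CAF-1 subunit gene Chaf1a rose by 0.54.

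The count of 25 in HoilΔCd4 depended on single animals. It was 9 without HoilΔCd4 mouse 2, the animal whose MHC I high library also held Xist, and 15 without HoilΔCd4 mouse 3. Without WT mouse 1 it was 16 and without WT mouse 3 it was 11. Calls among all 12797 tested genes fell as well, from 851 to 171, 294, 195 and 134 in the same order. The MHC I high library of WT mouse 3 had the largest quality weight (2.42, against 0.963 and 0.642 in WT mice 1 and 2). The median log2 fold change of the 44 genes stayed between 0.37 and 0.47 under all 20 alternatives. Called under every alternative were the 7 genes Mcm3, Mcm4, Mcm6, Pola1, Rrm1, Uhrf1 and Hells, the last encoding a chromatin remodeller that acts with DNMT1. In single libraries 39, 42 and 40 of the 44 genes of HoilΔCd4 mice 1, 2 and 3 lay above all 3 WT libraries, against 27.9%, 30.3% and 29.5% of all tested genes. HoilΔCd4 mouse 3, with 40, had the female pattern of the WT mice and mice 1 and 2 that of males. The part of sex was not tested.

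**Figure D3:**
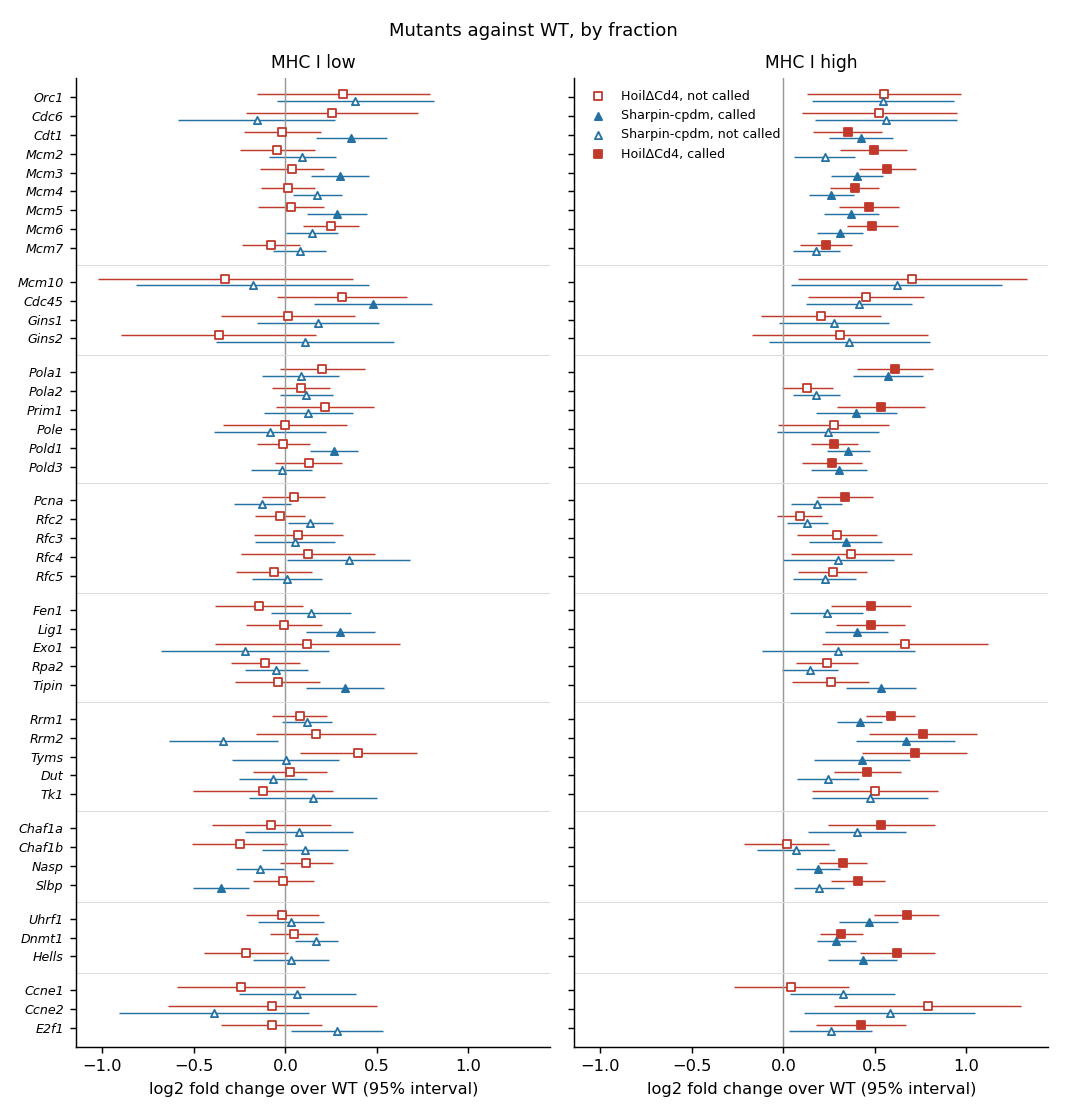
Points give the log2 fold change of each gene over WT with its 95% interval in MHC I low (left) and MHC I high cells (right) of HoilΔCd4 and Sharpin-cpdm mice, filled where the adjusted p is under 0.05. In MHC I low cells 22 of the 44 values are above 0 in HoilΔCd4 and 32 in Sharpin-cpdm, and in MHC I high cells all 44 are in both mutants.

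In Sharpin-cpdm mice some of these genes were called against WT already in the MHC I low fraction. There 7 of the 44 rose (Cdt1, Mcm3, Mcm5, Cdc45, Pold1, Lig1 and Tipin) and Slbp fell, against 5.28% of all tested genes called higher and 6.86% called lower. The median log2 fold change was 0.10 (all tested genes 0.01) and 32 values were positive. Cdc45 encodes the helicase cofactor and Tipin a protein that stabilises paused forks. Pold1 was at 57.6, 55.8 and 53.7 CPM in WT and at 64.1, 68.3 and 68.5 CPM in Sharpin-cpdm MHC I low cells, without overlap (log2 fold change 0.27, SE 0.0639, adjusted p 0.00562). Mcm3 was at 50.8, 50.8 and 47.8 CPM against 55.9, 60.5 and 70.2 CPM (log2 fold change 0.30, adjusted p 0.0103). Cdt1 was at 24.4, 21.8 and 25.6 CPM against 29.3, 29.7 and 34.4 CPM (log2 fold change 0.36, adjusted p 0.0107). Both were highest in Sharpin-cpdm mouse 3 and lost their calls without it (adjusted p up to 0.0726 and 0.0680), Mcm3 also without WT mouse 3, and Pold1 lost its call without Sharpin-cpdm mouse 2 (adjusted p 0.0538). The calls of Lig1 and Tipin were each lost under 10 of the 20 alternatives, that of Mcm5 under 8 and that of Cdc45, whose groups overlapped, under 14.

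Among the called genes Slbp was the exception in direction. It was at 43.1, 40.0 and 40.2 CPM in WT, at 43.3, 39.4 and 39.6 CPM in HoilΔCd4 and at 29.0, 34 and 33.6 CPM in Sharpin-cpdm MHC I low cells, so that all Sharpin-cpdm libraries lay under all others. Against WT it fell by 0.35 on the log2 scale (SE 0.0740, adjusted p 0.00171), and this call held under all 20 alternatives. Rrm2 pointed the same way, with 8.45, 8.64 and 11.1 CPM in WT and 5.74, 7.40 and 9.87 CPM in Sharpin-cpdm, but its groups overlapped and it did not pass (log2 fold change -0.34, interval -0.64 to -0.04, adjusted p 0.132). In Nasp every Sharpin-cpdm library (76.6 to 83.2 CPM) lay under every WT library (83.9 to 91.8 CPM), but it was not called. The total of 8 calls was 3 without Sharpin-cpdm mouse 2 and 3 without Sharpin-cpdm mouse 3. It was 5 without WT mouse 1 and 3 without WT mouse 3. Among all 12797 tested genes the calls went from 1554 to 948, 992, 839 and 814 in the same order. Both edgeR and DESeq2 called 4 of the 44, beside 1133 and 1263 of all tested genes. In both tools the 44 were thus close to the share of all genes. In Sharpin-cpdm mouse 3, 42 of the 44 genes were above their own group's mean in MHC I low cells, and in mouse 1 only 4 were. The share of all tested genes above that mean was not counted.

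After the step 19 of the 44 genes rose in Sharpin-cpdm over WT and none fell, against 4.15% of all tested genes called higher. The median log2 fold change was 0.33, a 1.26-fold difference (0.00 for all tested genes), and all 44 values were positive. For 26 genes every Sharpin-cpdm library lay above every WT library, against 11.5% of all tested genes. The calls again took in the 3 maintenance methylation genes, 5 of 9 licensing genes, 4 of 6 polymerase genes and 3 of 5 nucleotide genes, and none of the helicase activation or G1/S control genes. Both mutants were set against the same 3 WT mice, so their differences from WT are not independent of each other.

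Rrm1 again had the smallest p in MHC I high cells, with 94.5, 106 and 98.3 CPM in WT and 118, 133 and 143 CPM in Sharpin-cpdm (log2 fold change 0.42, SE 0.0607, adjusted p 2.16e-05). Pold1 was at 118, 130 and 138 CPM against 104, 102 and 98.6 CPM in WT (log2 fold change 0.36, SE 0.0577, adjusted p 0.000108). Pola1 was at 41.0, 51.3 and 54.4 CPM against 32.7, 35.6 and 32.8 CPM (log2 fold change 0.57, SE 0.0940, adjusted p 0.000123). In these 3 genes no library of the mutant overlapped WT, and their calls held under all 20 alternatives, as did those of Uhrf1 and Tipin. Tipin had a log2 fold change of 0.53 (SE 0.0941, adjusted p 0.000302), beside 0.26 (SE 0.103, adjusted p 0.126) in HoilΔCd4, but the difference between the mutants did not pass (adjusted p 0.109).

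Uhrf1 was at 89.3, 106 and 117 CPM in Sharpin-cpdm mice 1, 2 and 3 (log2 fold change 0.47, adjusted p 0.000281) and Rrm2 at 62.5, 77.3 and 83.9 CPM (0.67, adjusted p 0.00192, and up to 0.0586 without Sharpin-cpdm mouse 2 or WT mouse 3). Mcm3 was at 131, 157 and 170 CPM (0.40, adjusted p 0.000302), Mcm5 at 156, 169 and 197 CPM (0.37, adjusted p 0.00132) and Lig1 at 73.5, 84.1 and 97.2 CPM (0.40, adjusted p 0.00206). Without WT mouse 3 the calls of Mcm3 and Mcm5 were lost (adjusted p up to 0.0909 and 0.144), the latter also without WT mouse 1, and Lig1 was lost without Sharpin-cpdm mouse 3 (adjusted p 0.0591). In each of these 5 genes mouse 1 was lowest and mouse 3 highest. Slbp, at 64.7, 72.9 and 71.9 CPM, did not pass in this fraction (log2 fold change 0.20, adjusted p 0.0648), nor did Pcna, at 119, 130 and 150 CPM (0.18, adjusted p 0.101), and in Pcna the groups overlapped. Cdt1, at 53.4, 66.0 and 68.2 CPM, was called (0.42, adjusted p 0.00132, and up to 0.238 without sample weights, Sharpin-cpdm mouse 2 or WT mouse 3). E2f1, at 30.0, 26.7 and 34.3 CPM (0.26, adjusted p 0.152), Ccne1, at 27.7, 31.9 and 34.1 CPM (0.32, adjusted p 0.157), and Cdc6, at 19.3, 24.5 and 29.8 CPM (0.56, adjusted p 0.0643), were not called.

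This difference between the Sharpin-cpdm mice ran through the whole list. All 44 genes of mouse 3 were above the mean of the 3 Sharpin-cpdm MHC I high libraries and none of mouse 1 was. The share of all tested genes above that mean was not counted. In mice 1, 2 and 3, 27, 41 and 44 genes lay above all 3 WT libraries, against 27.0%, 28.1% and 30.7% of all tested genes. Leaving out mouse 1 raised the number of calls from 19 to 31, leaving out mouse 2 or 3 lowered it to 12 or 10, and leaving out WT mouse 3 lowered it to 6. Among all 12797 tested genes the calls went from 1102 to 1039, 482, 562 and 237 in the same order. The median log2 fold change lay between 0.23 and 0.44 under the 20 alternatives. Sharpin-cpdm mouse 2, with 41 genes, had the female pattern of the WT mice, and mice 1 and 3 that of males. With log2 Xist as a term in the fit 24 genes were called in Sharpin-cpdm and 22 in HoilΔCd4. Of all 12797 tested genes 1366 and 857 were called in that fit. All 3 WT mice had the female pattern, so the term rested almost wholly on differences among the mutant mice. The part of sex was not tested.

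**Figure D4:**
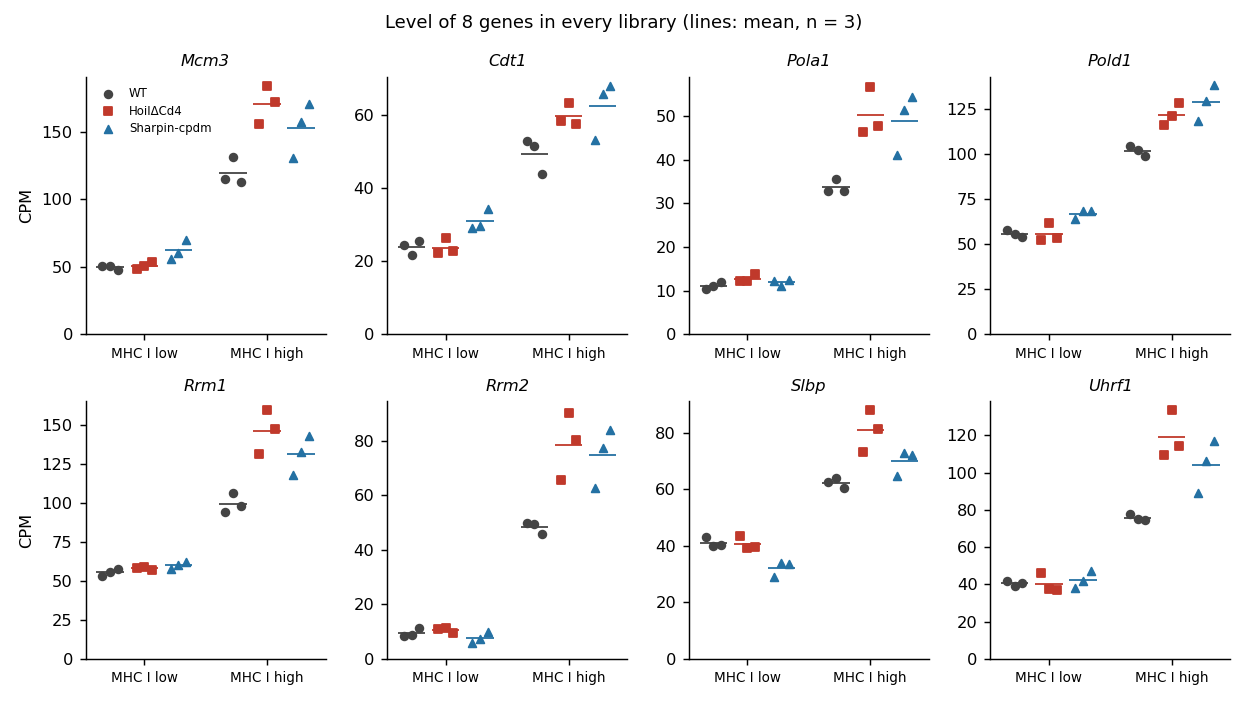
Each point is the CPM of a gene in 1 library, by fraction and genotype, with a line at the group mean (n = 3). Slbp in MHC I low cells is lower in Sharpin-cpdm (29.0 to 34 CPM) than in WT (40.0 to 43.1 CPM), whereas in MHC I high cells the mutants lie above WT, apart from the lowest Sharpin-cpdm value of Mcm3 (131 CPM, level with the highest of WT), with Rrm1 at 132 to 160 CPM in HoilΔCd4 against 94.5 to 106 CPM in WT.

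Set directly against each other in MHC I high cells, the mutants did not differ by the test in any of the 44 genes. Limma, edgeR and DESeq2 each called 0, with 10, 9 and 8 genes at an unadjusted p under 0.05, while limma called 6.72% of all tested genes. The median log2 difference of HoilΔCd4 from Sharpin-cpdm was 0.08 (-0.02 without Sharpin-cpdm mouse 1), and the 95% intervals of the single genes lay between -0.60 and 0.83, so differences of that size are not excluded for the scarcer genes. The smallest adjusted p was that of Mcm2, 0.0739, at a log2 difference of 0.27 (interval 0.08 to 0.45). Without HoilΔCd4 mouse 1, Sharpin-cpdm mouse 1 or Sharpin-cpdm mouse 3 the counts were 2, 1 and 2.

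Before the step 5 of the 44 genes were called between HoilΔCd4 and Sharpin-cpdm, beside 1214 of all 12797 tested genes. The 44 were thus close to the share of all genes. Nasp and Slbp were higher in HoilΔCd4 by 0.25 and 0.34 on the log2 scale (adjusted p 0.0272 and 0.00840), against 5.13% of all tested genes called higher. Cdt1, Pold1 and Tipin were lower, at log2 differences of -0.38, -0.28 and -0.37 (adjusted p 0.0223, 0.0134 and 0.0439), against 4.36% called lower. None of the 5 held under every alternative. The count was 1 without HoilΔCd4 mouse 1, 2 without HoilΔCd4 mouse 3, 8 without Sharpin-cpdm mouse 1 and 2 without Sharpin-cpdm mouse 2. In the same order 725, 896, 990 and 707 of all tested genes were called.

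Whether the rise between the fractions was itself larger in the mutants was tested as a difference of differences. In HoilΔCd4 it was larger than in WT for all 44 genes by value, with a median of 0.34 on the log2 scale (0.00 for all tested genes), and for 8 genes by the test, against 0.297% of all tested genes. The 8 were Hells (0.84, SE 0.133, adjusted p 0.00422), Uhrf1 (0.69), Fen1, the flap endonuclease gene (0.62), Mcm2 (0.54), Mcm3 (0.53), Rrm1 (0.51), Slbp (0.42) and Mcm4 (0.37). Hells was chosen for its values here. It stood at 14.4, 14.1 and 14.2 CPM in WT and at 10.8, 13.7 and 12.6 CPM in HoilΔCd4 MHC I low cells. After the step it stood at 46.8, 44.5 and 45.6 CPM in WT and at 62.7, 74.5 and 72.3 CPM in HoilΔCd4, so the mutant was under WT before the step and above it after. The 8 calls were the least stable of all: edgeR made 0 and DESeq2 3, and none of the 8 was called under every alternative. The count was 1 without HoilΔCd4 mouse 2, 0 without HoilΔCd4 mouse 3, 2 without WT mouse 1 and 0 without WT mouse 3. It was 4 without Sharpin-cpdm mouse 2 and 5 without Sharpin-cpdm mouse 3. Calls among all 12797 tested genes went from 51 to 1 with edgeR and 20 with DESeq2. Without these mice they were 7, 0, 11, 0, 32 and 31 in the same order.

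In Sharpin-cpdm the rise was larger than in WT for 39 of the 44 genes by value (median 0.23) and for 6 by the test, against 2.2% of all tested genes. These were Rrm2 (1.01, SE 0.172, adjusted p 0.00253), Slbp (0.55, SE 0.0881, adjusted p 0.000540), Pola1 (0.49), Uhrf1 (0.43), Nasp (0.33) and Rrm1 (0.30). For Rrm2 and Slbp the difference came from both ends, since both were below WT by value in MHC I low and above it in MHC I high cells. The Slbp call held under every alternative. The Rrm2 call was lost with edgeR only (adjusted p 0.0778). The count of 6 fell to 2 without Sharpin-cpdm mouse 2, 3 without Sharpin-cpdm mouse 3 and 2 without WT mouse 3. Among all 12797 tested genes the calls fell from 400 to 197, 121 and 104 in the same order.

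All genes with a promoter window rose between the fractions of WT, where 27.5% of all tested genes were called higher. The median log2 fold change was 0.98 over the 15 with an E2F match and 0.83 over the 21 without. Against WT in MHC I high cells the medians were 0.48 and 0.45 in HoilΔCd4, with 12 of 15 and 12 of 21 called higher. In Sharpin-cpdm they were 0.40 and 0.26, with 12 of 15 and 5 of 21 called higher. Of all tested genes 3.84% were called higher in HoilΔCd4 and 4.15% in Sharpin-cpdm. Without HoilΔCd4 mouse 2 the HoilΔCd4 counts were 7 of 15 and 1 of 21 and the medians 0.40 and 0.37, beside 171 of all 12797 tested genes called. These are descriptions, and the difference between the subsets was not tested.

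Other genes of the cell cycle were taken from lists by function, also chosen with earlier results of these data known. Of 43 further replication genes, 30 rose and 5 fell between the fractions of WT, where 27.5% of all tested genes were called higher and 26.8% lower. Of these 43, 5 rose in HoilΔCd4 over WT in MHC I high cells, led by Prim2, the primase partner of Prim1 (log2 fold change 0.45, adjusted p 0.00158), and Dbf4, the activator of the kinase that fires origins (0.43, adjusted p 0.00279). Without HoilΔCd4 mouse 2 Prim2 alone was called (adjusted p 0.0488), beside 171 of all 12797 tested genes. In Sharpin-cpdm 8 of the 43 rose, led by Dbf4 (0.37, adjusted p 0.00330) and the histone chaperone gene Asf1b (0.61, adjusted p 0.00542). All tested genes were called higher at 3.84% in HoilΔCd4 and 4.15% in Sharpin-cpdm. None was called in HoilΔCd4 MHC I low cells (limma, 6 at an unadjusted p under 0.05), beside 0.985% of all tested genes. In Sharpin-cpdm MHC I low cells Donson and Wdhd1 fell (by 0.31 and 0.23), 2 of 43 genes beside the 6.86% of all tested genes called lower.

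Among 15 further drivers of the G1/S step, 7 rose in HoilΔCd4 and 6 in Sharpin-cpdm MHC I high cells, beside 3.84% and 4.15% of all tested genes. E2f2, a second activating E2F gene, led in both, with a log2 fold change of 0.54 (adjusted p 0.000292) in HoilΔCd4 and 0.47 (adjusted p 0.000300) in Sharpin-cpdm. Without HoilΔCd4 mouse 2 only E2f2 was called in HoilΔCd4 (adjusted p 0.0235), beside 171 of all 12797 tested genes. Tfdp1, the dimer partner of the E2F factors, rose by 0.37 in HoilΔCd4 and Myc by 0.33 in Sharpin-cpdm. In HoilΔCd4 MHC I low cells only Myc was called, falling by 0.43 (limma, adjusted p 0.0136), beside 0.985% of all tested genes. In those of Sharpin-cpdm Ccnd2 rose by 0.22 and Cdk2 by 0.20 (limma, adjusted p 0.0211 and 0.0393). There Cdk6, the kinase that acts with D cyclins, fell by 0.78 (adjusted p 4.45e-05). Of all tested genes 5.28% were called higher and 6.86% lower in that comparison.

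Of the brakes on this step, 17 of 19 were tested. In HoilΔCd4 MHC I high cells the inhibitor genes Cdkn1b and Cdkn2d fell by 0.22 and 0.24 and E2f8, a repressing E2F gene that is itself made in S phase, rose by 0.84, beside 2.81% of all tested genes called lower and 3.84% higher. None of these 3 was called without HoilΔCd4 mouse 2 (limma, adjusted p 0.0607, 0.0941 and 0.0833). In Sharpin-cpdm, with 4.46% of all tested genes called lower, 4 fell, led by the antiproliferative genes Tob1 (by 0.72, adjusted p 2.50e-07) and Btg2 (by 0.41, adjusted p 2.62e-05), and 2 rose, E2f8 by 0.69 and Rbl1 by 0.21. Tob1 and Btg2 fell in Sharpin-cpdm MHC I low cells as well, by 0.50 and 0.26. They were among 4 of the 17 called lower there, beside 6.86% of all tested genes.

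Genes of G2 and mitosis, which act after S phase, were described in the same way. Of 29 of them, 28 rose and 1 fell between the fractions of WT (median log2 fold change 1.86), beside 27.5% and 26.8% of all tested genes. In MHC I high cells 24 rose in HoilΔCd4 (median 0.74) and 22 in Sharpin-cpdm (median 0.58), beside 3.84% and 4.15% of all tested genes, with Incenp, a subunit of the chromosomal passenger complex, at the smallest p in both (log2 fold change 0.52 and 0.44). Without HoilΔCd4 mouse 2 the HoilΔCd4 count was 8, beside 171 of all 12797 tested genes, and the median 0.63. The mutants differed in MHC I low cells, where 8 of the 29 fell in Sharpin-cpdm, Nusap1 by 0.74 and the mitotic cyclin gene Ccnb2 by 0.61, none was called in HoilΔCd4 (median 0.31, 10 at an unadjusted p under 0.05), and 17 were higher in HoilΔCd4 than in Sharpin-cpdm. Of all tested genes in this fraction, 0.985% were called in HoilΔCd4 in either direction and 6.86% were called lower in Sharpin-cpdm. Another 5.13% were called higher in HoilΔCd4 than in Sharpin-cpdm. The rise between the fractions was larger than in WT for 21 of the 29 in Sharpin-cpdm (median 0.90) and for 1 in HoilΔCd4 (median 0.41), beside 2.2% and 0.297% of all tested genes.

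Markers of pre-selection DP thymocytes were also compared in the MHC I high fraction. Rag1, a subunit of the enzyme that rearranges the T-cell receptor genes, was at 82.1, 93.9 and 78.1 CPM in WT, at 108, 177 and 163 CPM in HoilΔCd4 and at 88.5, 130 and 122 CPM in Sharpin-cpdm mice 1, 2 and 3. The summed level of 6 DP markers (Rag1, Rag2, Dntt, Arpp21, Aqp11 and Tcf12) was 446 to 473 CPM in WT, 539 to 700.4 CPM in HoilΔCd4 and 488 to 578 CPM in Sharpin-cpdm, and none was at 0. In each mutant mouse 1 was lowest both in this sum and in the sum of the replication genes. HoilΔCd4 mouse 2 was highest in both. In Sharpin-cpdm, however, mouse 2 had the highest DP sum (578 CPM) and mouse 3 the highest replication sum (3720 CPM). In WT mouse 1 had the lowest DP sum (446 CPM) and mouse 3 the lowest replication sum (2648 CPM). Between the fractions of WT the DP sum fell, from 541 to 573 CPM to 446 to 473 CPM, while all 44 genes rose. The DP markers did not move alike. In WT Rag1 fell from 154.3 to 169.5 CPM to 78.1 to 93.9 CPM. Dntt overlapped between the WT fractions, at 87.9 to 94.3 CPM and 85.9 to 93.0 CPM. In every mutant mouse Dntt was higher in the MHC I high library. It went from 99.3 to 116.8 CPM to 115.6 to 193.5 CPM in HoilΔCd4. In Sharpin-cpdm it went from 78.85 to 90.3 CPM to 105.6 to 137.6 CPM. In the mutants the DP sums of the fractions overlapped. Among MHC I low libraries, where the replication genes of HoilΔCd4 were close to WT, the DP sum was 593 to 612 CPM against 541 to 573 CPM in WT. In Sharpin-cpdm MHC I low cells, where 7 replication genes rose, it was below WT at 481 to 511 CPM, with Rag2 at a log2 fold change of -1.04 (adjusted p 0.00193). For mature single-positive cells 4 markers (S1pr1, Klf2, Ccr7 and Il7r) summed to 911 to 976 CPM in WT, 779.7 to 826 CPM in HoilΔCd4 and 953 to 1032 CPM in Sharpin-cpdm MHC I high cells. Before the step they summed to 545 to 556 CPM in WT, 457 to 490.4 CPM in HoilΔCd4 and 663 to 686 CPM in Sharpin-cpdm. The part of these markers, and that of sex, in the differences of the replication genes was not tested.

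**Figure D5:**
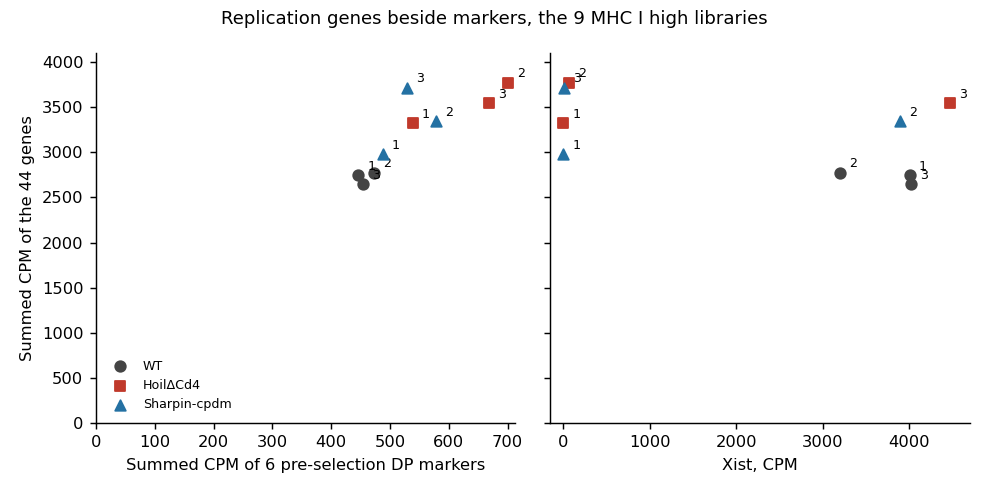
The summed CPM of the 44 replication genes in the 9 MHC I high libraries is set against the summed CPM of 6 pre-selection DP markers (left) and against Xist (right), with mouse numbers beside the points. The 3 WT libraries, all with the female pattern, are lowest in both sums, at 446 to 473 CPM of the DP markers. Mutants of the female and of the male pattern lie above them, and the part of sex was not tested.

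Markers of other cells were summed in the same way. The 6 genes of CD25+ double-negative and immature single-positive cells summed to 142 to 169 CPM in WT, 156 to 168 CPM in HoilΔCd4 and 176 to 185 CPM in Sharpin-cpdm in the MHC I high fraction, and none was at 0 in all libraries of a group. They summed in MHC I low cells to 32.4 to 51.2 CPM. Across all 18 libraries the B cell list summed to 3.41 to 5.94 CPM, the myeloid and dendritic list to 2.09 to 9.16 CPM, the thymic epithelial list to 6.03 to 11.9 CPM, nearly all of it Epcam, and the erythroid list to 0.682 to 1.54 CPM. The gamma-delta and NKT list (Sox13, Zbtb16, Tbx21 and Klrb1c) summed in MHC I high cells to 5.79 to 7.76 CPM in WT, 10.8 to 13.0 CPM in HoilΔCd4 and 9.80 to 11.9 CPM in Sharpin-cpdm, with Sox13 called higher in both mutants (log2 fold change 1.53 and 1.15). In MHC I low cells this list summed to 11.3 to 18.4, 19.4 to 28.6 and 22.2 to 37.2 CPM in the same order of genotypes, and Sox13 was called higher in Sharpin-cpdm (0.86). The regulatory T cell list (Foxp3, Ikzf2 and Ctla4) summed to 512 to 604 CPM in WT, 433 to 560 CPM in HoilΔCd4 and 373 to 425 CPM in Sharpin-cpdm MHC I high cells. Its sum in MHC I low cells was 792 to 995 CPM in WT, 946 to 1069 CPM in HoilΔCd4 and 485 to 552 CPM in Sharpin-cpdm, where Ikzf2 fell by 0.76 (adjusted p 4.08e-05). The part of these lists in the results was not tested either.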

How the data were processed

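RNA of sorted thymocytes was sequenced from 9 mice (18 libraries). Per the methods of the study, the authors aligned single-end reads (subread, mm10) and used featureCounts with a built-in RefSeq annotation, so the deposited values are whole counts without normalization. Versions, strand setting and the handling of reads with several matches are not given in the sources used here. A gene length column, which the authors deposited beside the counts, gave CPM per kb. The series table held 0 values that differed from the sample files.

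The filter of the study was applied: a gene needed 0.5 CPM in 3 samples and an official symbol, and neither predicted genes nor Xist and Y-linked genes entered the test. Printed CPM are relative to the summed counts of the tested genes in each library, scaled by TMM factors of 0.987 to 1.02. Log2 CPM (prior count 1) of all 12797 genes was fitted in limma 3.58.1 (edgeR 4.0.16, R 4.3.3) with 6 groups, sample quality weights and mouse as a random block (correlation 0.224), with robust, trended empirical Bayes statistics. P-values were adjusted by Benjamini-Hochberg over all tested genes and called under 0.05. The 2 fractions of a mouse come from the same animal by the labels, and the correlation of their deviations from the means of their groups was 0.0702 to 0.256 in the 9 mice. The number shared by mice of different genotypes pairs nothing by the labels. Library pairs of a group differed by more than sampling noise (chi-square per degree of freedom 5.26 to 16.7 over 18 pairs). With 3 mice a group, p-values rest on a spread pooled over the 6 groups and moderated across genes. They speak for these 9 mice only.

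The members, role groups and other lists were chosen with earlier results of these data known. Values in every sample were given for the 3 members with the smallest p in each direction among those called against WT in each fraction and between the fractions of WT, and for Pcna, Mcm5, Rrm2, Cdc6, Ccne1, E2f1 and Slbp. The other lists were given by counts and by up to 2 members with the smallest p in each direction. The results were recomputed with DESeq2 1.42.0, the quasi-likelihood test of edgeR, other scaling, filters and prior count, fits without weights or block, Xist as a covariate and leaving out each mouse. On simulated counts with 200 changed genes each tool was tested before use. A marker left out of each of 2 cell type lists is not reported here.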

Additional observations from a re-analysis of the deposited data

Results flagged for a closer look

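The difference of MHC I high from MHC I low cells was not the same in a mutant and in WT, by a direct test of that difference in limma (adjusted p under 0.05 over all tested genes), for 8 replication genes in HoilΔCd4 and 6 in Sharpin-cpdm. In HoilΔCd4 the rise was larger than in WT by 0.54 for Mcm2, 0.53 for Mcm3, 0.37 for Mcm4, 0.62 for Fen1, 0.51 for Rrm1, 0.42 for Slbp, 0.69 for Uhrf1 and 0.84 for Hells on the log2 scale. In Sharpin-cpdm it was larger by 0.49 for Pola1, 0.30 for Rrm1, 1.01 for Rrm2, 0.33 for Nasp, 0.55 for Slbp and 0.43 for Uhrf1. Rrm1, Slbp and Uhrf1 are in both sets, which share the WT mice. Only the Slbp difference in Sharpin-cpdm was called under all 20 alternatives.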

How the results depend on the processing

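No gene called in a comparison changed its sign under any of the 20 alternatives. Of the medians over the 44 genes, those close to 0 changed sign: that of HoilΔCd4 against Sharpin-cpdm in MHC I high cells became -0.02 without Sharpin-cpdm mouse 1, and that of HoilΔCd4 against WT in MHC I low cells became -0.0026 by library size only and -0.0017 with the Xist covariate. The calls between the fractions stayed at 43 to 44 in WT and at 44 in both mutants when each mouse was left out in turn. Left out in turn, single mice moved the other counts to 0 to 1 (HoilΔCd4 against WT, MHC I low), 9 to 27 (HoilΔCd4, MHC I high), 3 to 9 (Sharpin-cpdm, MHC I low), 6 to 31 (Sharpin-cpdm, MHC I high), 1 to 8 and 0 to 2 (HoilΔCd4 against Sharpin-cpdm, MHC I low and high), and 0 to 9 and 2 to 7 (larger rise in HoilΔCd4 and in Sharpin-cpdm). The 8 calls of Sharpin-cpdm against WT in MHC I low cells became 4 with edgeR, DESeq2 or no low filter and 5 without sample weights, with the Xist covariate or when the fit held no other groups. Without sample weights the 19 calls of Sharpin-cpdm in MHC I high cells became 12 and the 5 between the mutants in MHC I low cells became 9. The 8 larger rises of HoilΔCd4 became 0 with edgeR or no low filter, 3 with DESeq2 or no replicate block, and 4 without sample weights or with the Xist covariate. The 6 of Sharpin-cpdm became 1 with edgeR, 2 with DESeq2, no low filter, no sample weights or no replicate block, and 10 with at least 10 counts in every sample. With the mouse number as a fixed replicate block, 1 gene in place of 0 was called between the mutants in MHC I high cells, and a mouse or mouse number as a fixed term moved no other count by over 1.5 times. Calls among all tested genes also moved between these fits. The cause of these shifts was not tested. Scarce genes such as Mcm10, Ccne2, Exo1 and Gins2 had the widest intervals between genotypes, so smaller differences there may be missed. The other gene lists and the promoter subsets without HoilΔCd4 mouse 2 were computed after the data had been seen.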
